A study of Homo sapiens with 13 samples.

Results

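The comparison described here is F5446 at 10 nM against the vehicle DMSO in HuT78 cells after 72 h, measured by RNA sequencing. HuT78 is an established T cell line made from a patient with Sézary syndrome, a cutaneous T cell lymphoma whose cells circulate in the blood. The members are the 3 libraries whose titles give F5446 (replicates 2, 3 and 4) and the 2 DMSO libraries (replicates 1 and 4), 5 of the 13 libraries of the series, and all genes: 17252 of the 45744 in the count table had enough counts to be tested. The remaining 8 libraries came from HuT78 cells given chaetocin (10 nM, 4 libraries) or romidepsin (1 µM, 4 libraries) for the same 72 h. The titles name F5446 for all 3 libraries, whereas the treatment tags read F5446 for replicate 2, F5447 for replicate 3 and F5448 for replicate 4. The titles were used, and the results without each of the 3 libraries are given below. HuT78 is a single cell line, and the labels do not say whether the replicates were separate cultures, so p-values cover only library-to-library spread, which may be technical.

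F5446, known by its code name, was described as an inhibitor of SUV39H1, an enzyme that adds trimethylation to lysine 9 of histone H3. HP1 proteins bind this mark and compact chromatin into heterochromatin, which keeps satellite repeats, lineage genes and some immune genes silent. In T cells and tumor cells the mark has been tied to the silencing of cytokine, granzyme and FAS genes, so an inhibitor could show in their transcripts. The counts report RNA only, and the level of the histone mark was not measured in them.

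The 5 libraries held 19951198 to 29002774 counts, within the 19901052 to 30816188 of all 13. The T cell markers (CD3 chains, CD4, TRAC, LCK and others, 10 genes) summed to 1068 to 1310 CPM (normalized counts scaled to a common library size) in F5446 and 952.4 to 1132 CPM in DMSO libraries, with none of the 10 at 0. Monocyte markers summed to at most 3.17 CPM in any of the 5, with CD68, S100A8 and S100A9 at 0, and the globin genes HBB, HBA1 and HBA2 were at 0. Natural killer markers NCAM1, NCR1 and KLRC1 were at 0, and KIR2DL1 alone gave nearly all of that list's sum of 71.2 to 84.3 CPM with F5446 and 72.7 to 86.2 CPM with DMSO. B cell markers summed to 68.9 to 93.9 CPM with F5446 and 63.1 to 74.3 CPM with DMSO (PAX5 at 0). Fibroblast markers summed to 111.2 to 158.2 against 103.6 to 150.4 CPM (DCN and FAP at 0), and epithelial markers to 117.9 to 121.6 against 106.9 to 138.6 CPM (KRT19 at 0).

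The libraries lay apart by replicate number more than by treatment. Over 10096 genes of at least 5 CPM, F5446 replicates 3 and 4 differed by a median absolute log2 difference of 0.147, the smallest of the 10 pairs. F5446 and DMSO libraries within the same set of numbers (1 and 2, or 3 and 4) differed by 0.158, 0.171 and 0.185. Libraries in different sets lay farther apart, whatever their treatment. The 2 F5446 pairs across the sets were at 0.233 and 0.256, the 3 pairs of F5446 with DMSO at 0.267, 0.268 and 0.277, and DMSO replicates 1 and 4 at 0.278. The definition of this comparison set a term for numbers 1 and 2 against 3 and 4, which was part of the fit. The difference within each set is given beside the fitted values. It is F5446 replicate 2 against DMSO replicate 1, and F5446 replicates 3 and 4 against DMSO replicate 4. Each set holds a single DMSO library.

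**Figure D1:**
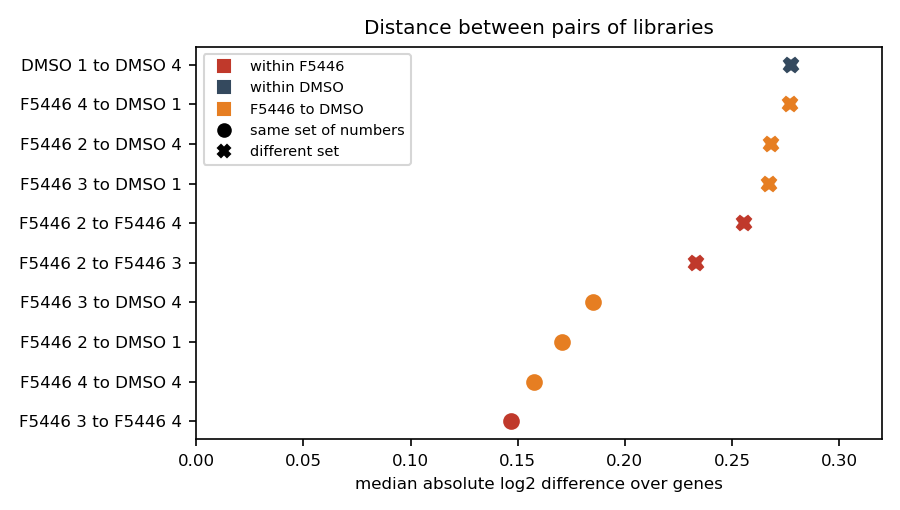
Distance between each pair of the 5 libraries, as the median absolute log2 difference over 10096 genes (horizontal axis); color gives the kind of pair and the marker whether both libraries belong to the same set of replicate numbers. The 4 pairs within a set lie between 0.147 and 0.185 and the 6 pairs across sets between 0.233 and 0.278.

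With F5446, no gene passed the test. By edgeR's quasi-likelihood test with Benjamini-Hochberg adjustment, 0 of 17252 genes (0%) had an adjusted p under 0.05, and the smallest adjusted p was 0.223, for C6orf226. An unadjusted p under 0.05 was reached by 690 genes (4%), 428 with a higher level (2.48%) and 262 with a lower level (1.52%). DESeq2 called 2 genes (C6orf226 and AL451049.1, both higher, named after their values were seen) and limma-voom 0. A fit of the 5 libraries alone, which leaves 2 residual degrees of freedom, called 27, of which 22 were higher and 5 lower. Among these 27 were C6orf226, CHAF1A, SYNGR2, GRK2, SLC25A5, PPDPF, C8orf33, RPS14, HIST1H2AB, PSMB8 and GBP1, all described below. The median log2 fold change of all tested genes was 0.02, and 52.4% of them were above 0.

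The size of change these libraries could show depended on the level of the gene. Of the 3884 genes with a mean over 50 CPM, 98.3% had a 95% confidence interval wholly inside a 2-fold change in either direction, and 89.4% inside 1.5-fold. For the 6186 genes between 5 and 50 CPM these shares were 91.4% and 44.5%. Only 10.1% of the 2871 genes of 1 to 5 CPM and 0.16% of the 4311 genes under 1 CPM were bounded within 2-fold. A change of that size was thus not detectable in most weakly expressed genes. Among the 10070 tested genes that averaged 5 CPM or more over the 5 libraries, 7 had a fitted change of more than 2-fold upward and 7 downward.

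C6orf226, an uncharacterized open reading frame, had the smallest p of all genes. It was at 6.73, 7.01 and 7.08 CPM in F5446 replicates 2, 3 and 4, and at 1.63 and 1.40 CPM in DMSO replicates 1 and 4. The F5446 libraries were close together and all far above DMSO. The log2 fold change was 2.14 (95% interval 1.30 to 2.99, adjusted p by edgeR = 0.223), with 1.99 in numbers 1 and 2 and 2.26 in numbers 3 and 4. In the other treated groups, compared with the same DMSO libraries, it was at 3.96 to 6.33 CPM with chaetocin and 2.74 to 7.62 CPM with romidepsin, so that the low value was that of the DMSO pair. Its F5446 level differed from that with chaetocin by 0.47 on the log2 scale (95% interval -0.16 to 1.09).

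CHAF1A, the large subunit of the chromatin assembly factor that deposits histones behind the replication fork and binds HP1, had the smallest p of the genes of at least 50 CPM. It was at 118, 121 and 131 CPM with F5446 and at 169 and 206 CPM with DMSO, and the groups did not overlap. The log2 fold change was -0.62 (95% interval -0.94 to -0.29, adjusted p by edgeR = 1), with -0.52 and -0.71 in the sets of numbers. With chaetocin it lay between 123.98 and 189 CPM and with romidepsin between 110.9 and 158 CPM, both ranges reaching below the lower DMSO library. Its partner subunit CHAF1B was at 56.2, 60.3 and 48.8 CPM against 53.6 and 63.7 CPM, with overlapping groups and a log2 fold change of -0.10 (95% interval -0.41 to 0.22).

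The 12 genes with the smallest p among those with a higher level, at least 5 CPM and no overlap of libraries are described next. Of these, ASNS, SLC25A5 and COASY encode enzymes or carriers of basic metabolism, a share that was not tested. ASNS, the asparagine synthetase and a target of the amino acid stress factor ATF4, was at 50.2, 61.2 and 46.7 CPM with F5446 and 35.0 and 32.7 CPM with DMSO, a log2 fold change of 0.64 (95% interval 0.25 to 1.02). SLC25A5, an ADP/ATP carrier of the inner mitochondrial membrane, was at 361, 337 and 313 CPM against 266 and 226.4 CPM (log2 fold change 0.45). COASY, the coenzyme A synthase, was at 52.9, 53.8 and 52.4 CPM against 34.5 and 39.6 CPM (0.50 on the log2 scale). Because these genes were picked for having no overlap, their separation from DMSO follows from the choice. Every F5446 library lay above both DMSO libraries in 9.44% of all tested genes. SYNGR2, a synaptogyrin of vesicle membranes, was at 167, 185 and 159 CPM against 113.8 and 124.01 CPM (log2 fold change 0.49, 95% interval 0.22 to 0.76).

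Further genes of this group act in signalling. TP63, a transcription factor of the p53 family, was at 46.8, 50.2 and 56.0 CPM with F5446 and 26.5 and 39.4 CPM with DMSO (log2 fold change 0.59, 95% interval 0.26 to 0.92). GRK2, a kinase that desensitizes G protein-coupled receptors, was at 606, 818 and 678 CPM against 387 and 574 CPM (0.49), and ADRB1, the beta-1 adrenergic receptor, at 40.8, 48.0 and 43.6 against 26.1 and 34.01 CPM (0.54). TESC, a calcium-binding tescalcin, was at 10.0, 16.02 and 13.02 CPM against 8.14 and 5.46 CPM. Its log2 fold change of 0.92 (95% interval 0.35 to 1.499) was uneven, with 0.29 in numbers 1 and 2 and 1.39 in numbers 3 and 4. COMMD7, at 22.5, 15.5 and 10.1 CPM against 10.0 and 8.02 CPM, was uneven the other way, with 1.16 and 0.63 around a fitted 0.87. The others, TUBGCP3 of the gamma-tubulin ring complex, C8orf33 and PPDPF, had log2 fold changes between 0.45 and 0.52, and all 12 had an adjusted p of 1 by edgeR. Compared with the same DMSO libraries, all 12 were also above 0 with chaetocin and with romidepsin. TP63 had 0.62 and 0.67 on the log2 scale, ASNS 0.60 and 0.48, and GRK2 0.27 and 0.18. The part of the shared DMSO pair in these differences was not tested.

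Among the genes with a lower level chosen by the same rule, small nuclear and nucleolar RNAs and a glycosylation enzyme stood beside CHAF1A. SNORD104, a box C/D small nucleolar RNA that guides ribosomal RNA methylation, was at 4.11, 4.84 and 6.33 CPM with F5446 and 13.8 and 8.60 CPM with DMSO (log2 fold change -1.32, 95% interval -1.9999 to -0.64, adjusted p by edgeR = 1). It was among the 3 genes called when DMSO replicate 4 was left out, at -1.96. SCARNA17, a Cajal body RNA, was at 19.4, 18.3 and 25.4 CPM against 34.9 and 33.04 CPM (-0.77 on the log2 scale). ALG9, a mannosyltransferase that builds the N-glycan precursor in the endoplasmic reticulum, was at 4.51, 3.88 and 4.90 CPM against 9.87 and 9.81 CPM. Each F5446 library thus held about the same low level, and the fitted log2 difference for ALG9 was -1.14 (95% interval -1.79 to -0.48), with -1.12 and -1.16 in the sets. With chaetocin ALG9 was at 3.03 to 7.70 CPM and with romidepsin at 5.95 to 7.70 CPM. The DMSO pair was thus the highest for this gene.

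CD247 and TRAF5 are the T cell signalling genes of this group. CD247, the zeta chain of the T cell receptor complex, was at 76.0, 89.2 and 102 CPM with F5446 and 110 and 117 CPM with DMSO (log2 fold change -0.41, 95% interval -0.68 to -0.13). TRAF5, an adaptor of tumor necrosis factor family receptors, was at 18.9, 14.3 and 18.1 CPM against 27.6 and 24.9 CPM (-0.58). LRP6, a Wnt co-receptor, was at 12.4, 12.9 and 10.99 against 20.4 and 18.1 CPM (-0.63), and INA, a neuronal intermediate filament gene, at 12.6, 12.99 and 11.2 against 24.5 and 16.3 CPM (-0.66). KBTBD8, STARD9 and DPY19L2 had log2 fold changes of -0.72, -0.70 and -1.20. DPY19L2 has near-identical copies in the genome, so its counts are uncertain. With chaetocin and romidepsin, against the same DMSO libraries, CD247 had log2 fold changes of -0.50 and -0.59 and LRP6 of -0.72 and -0.57. INA had -0.28 and -0.16, and STARD9 -0.30 and 0.07. Each gene named here had an adjusted p of 1 by edgeR.

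**Figure D2:**
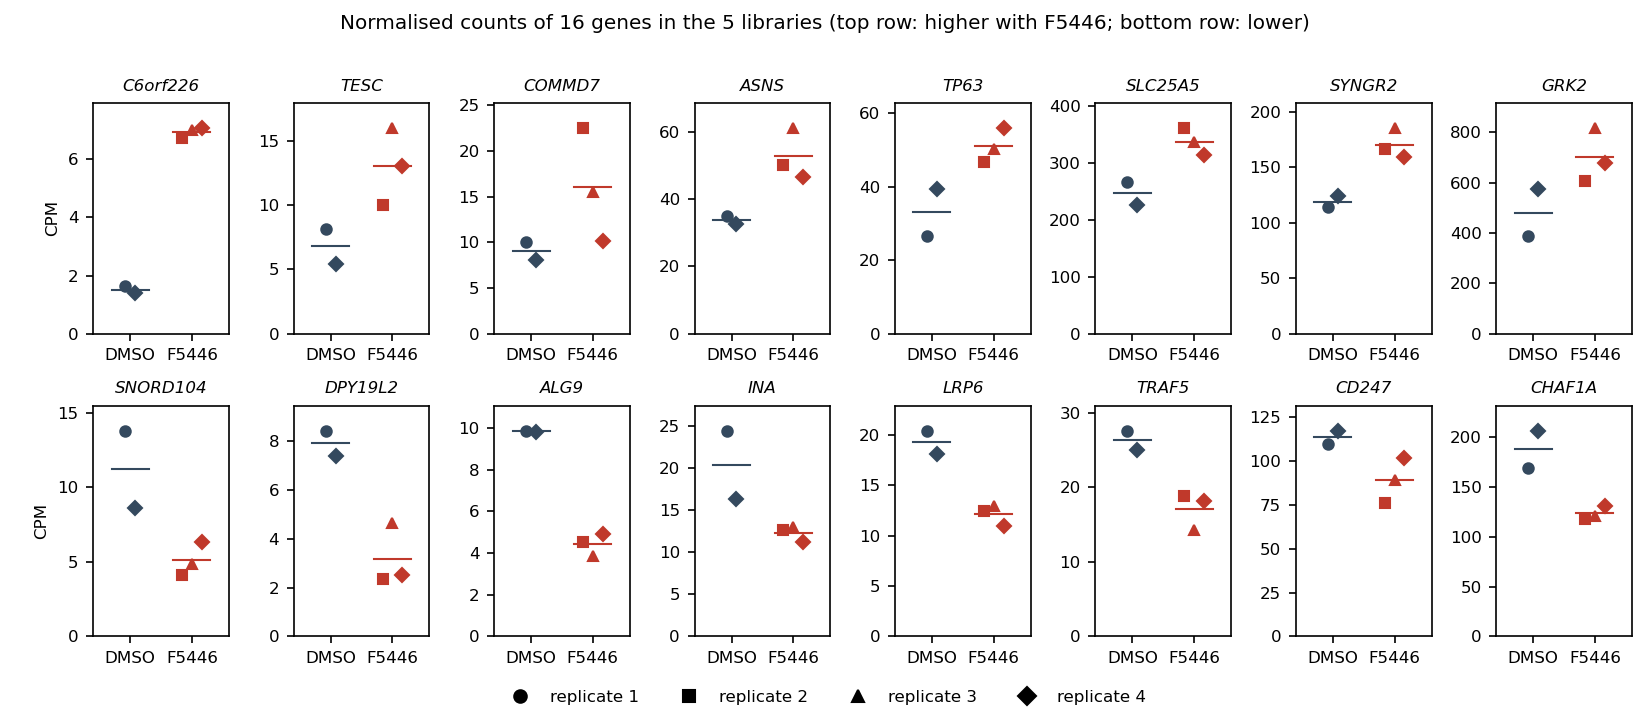
Normalized counts in CPM (vertical axes, each starting at 0) of 16 genes in the 2 DMSO and 3 F5446 libraries; each point is a library, its marker gives the replicate number and the line the group mean. The top row shows genes with higher levels (C6orf226 at 6.73 to 7.08 CPM against 1.40 and 1.63 CPM) and the bottom row genes with lower levels (ALG9 at 3.88 to 4.90 CPM against 9.81 and 9.87 CPM); no gene passed the adjusted threshold.

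The differences were compared between the 2 sets of numbers to see how far a gene's difference recurred. Over the 10070 genes of at least 5 CPM, the 2 within-set differences shared a sign in 57.5%, with a Pearson r of 0.18 and a Spearman rho of 0.20 across genes, which share libraries and depth and are not independent. Of the 100 genes highest in F5446 replicate 2 over DMSO replicate 1 (median log2 difference 0.93), 69 were above 0 in the other set, where 55.9% of all genes were; their median there was 0.19. Of the 100 lowest (median -0.90), 55 were below 0 in the other set, with a median of -0.09. So most of the difference seen in 1 set was not seen at that size in the other. These genes were picked as the extremes of 1 set, so smaller differences in the other follow in part from the choice. An interaction of treatment with the sets was called in 0 genes by edgeR, with 385 (2.23%) at an unadjusted p under 0.05.

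**Figure D3:**
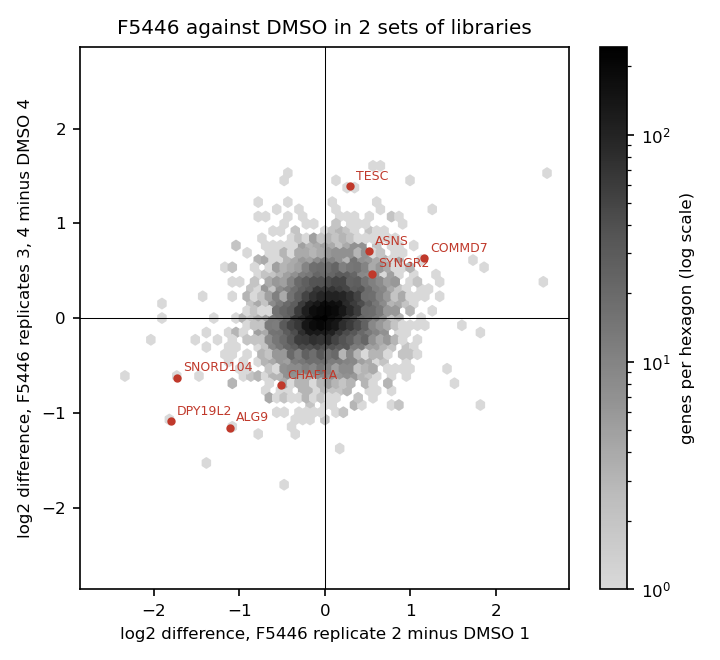
Log2 difference of F5446 replicate 2 from DMSO replicate 1 (horizontal) against that of F5446 replicates 3 and 4 from DMSO replicate 4 (vertical) for 10070 genes, as hexagons shaded by the number of genes; 8 named genes are marked. Most genes lie near 0 with little alignment (r = 0.18), CHAF1A, ALG9, DPY19L2 and SNORD104 lie low in both sets, and ASNS, SYNGR2 and COMMD7 lie high in both.

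The transcripts of the drug's target and of the H3K9 methylation machinery lay close to their DMSO levels. SUV39H1 was at 35.7, 47.7 and 45.0 CPM with F5446 and 34.4 and 40.9 CPM with DMSO; the groups overlapped, and the log2 fold change was 0.16 (95% interval -0.18 to 0.50). SUV39H2, its paralog, was at 38.7, 33.2 and 29.4 CPM against 48.7 and 33.8 CPM, a log2 fold change of -0.24 (95% interval -0.60 to 0.12). SETDB1, which methylates H3K9 at silenced repeats, had 0.08 (95% interval -0.22 to 0.37). EHMT1 and EHMT2, the G9a-type enzymes of euchromatin, had 0.02 (95% interval -0.29 to 0.33) and 0.13 (95% interval -0.22 to 0.47). The H3K9 methyltransferase list, with 13 tested genes, holds enzymes and also partners such as MPHOSPH8 and ATF7IP. All 13 had an interval inside a 2-fold change. Their median was 0.03, 9 of 13 were above 0, and 0 had an unadjusted p under 0.05. MPHOSPH8, a reader of methylated H3K9 in the HUSH silencing complex, was at 30.5, 30.7 and 31.9 CPM against 37.7 and 40.9 CPM, all F5446 libraries lower (log2 fold change -0.37, 95% interval -0.79 to 0.05). The 11 tested H3K9 demethylases had a median of -0.03, with 4 above 0.

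HP1 genes and most of their partners lay near their DMSO levels. CBX1, which encodes HP1-beta, was at 121, 134 and 134 CPM with F5446 and 156 and 153 CPM with DMSO, without overlap (log2 fold change -0.29, 95% interval -0.54 to -0.04, unadjusted p = 0.0259, adjusted p by edgeR = 1). CBX3 (HP1-gamma) had 0.12 (95% interval -0.16 to 0.39) and CBX5 (HP1-alpha) had -0.03 (95% interval -0.27 to 0.21). TRIM28, the corepressor that brings SETDB1 and HP1 to zinc finger proteins, was at 349, 504 and 451 CPM against 296 and 354 CPM, with overlapping groups (log2 fold change 0.38, 95% interval 0.11 to 0.65). All 16 tested HP1 and heterochromatin readers had an interval inside 2-fold, with a median of -0.03 and 7 above 0. The 20 histone chaperones had a median of -0.02; beside CHAF1A only ASF1A, an H3-H4 chaperone, had an unadjusted p under 0.05, at 122, 95.9 and 101 CPM against 101 and 69.9 CPM (0.34 on the log2 scale). Of 17 histone deacetylases 6 were above 0 (median -0.06), and the 13 genes of polycomb and DNA methylation had a median of -0.02.

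Among genes that H3K9 methylation commonly holds silent, none was called. Of 21 germline and cancer-testis genes, 12 had no count in any of the 5 libraries, which allows up to 0.103 to 0.15 CPM in single libraries (3 counts, counting error only), and 18 were too low to be tested. All 3 tested genes were above 0 (median 1.14), with wide intervals, and none was called. High counts in 1 group can alone bring a gene past the filter, so this shared sign is no support for a rise. Of the genes not tested, DAZL, SYCP3, DPEP3 and CTCFL had counts in DMSO replicate 4 alone (0.145 to 0.193 CPM). MAGEC1 had counts in F5446 replicate 3 alone (0.0369 CPM), and DDX4 in both groups. PAGE5 was at 5.08, 2.40 and 4.60 CPM with F5446 and 2.92 and 2.17 CPM with DMSO, overlapping (log2 fold change 0.66, 95% interval -0.23 to 1.55). STK31, a kinase-like gene of the testis, named after its values were seen, was at 0.976, 0.148 and 1.09 CPM against 0 and 0.0966 CPM, so that every F5446 library lay above DMSO. Both DMSO values lie under the 3-count floor, and the fitted 3.64 (95% interval -1.75 to 9.03) depends on the prior count and is no measured fold. SSX1 was at 0, 0.221 and 0 CPM against 0 and 0.0483 CPM. The 417 tested ZNF genes, many of them targets and partners of this pathway, had a median of -0.02, and 192 were above 0. At an unadjusted p under 0.05, 4 were higher and 2 lower, where 2.48% and 1.52% of all tested genes were. ZNF684, for example, was at 8.49, 7.86 and 6.63 CPM against 4.41 and 3.62 CPM (0.97 on the log2 scale), and ZNF641 at 19.9, 20.5 and 18.3 against 26.9 and 28.2 CPM (-0.48). ZNF624 and ZNF670 had log2 fold changes of 0.94 and 1.22. The 28 tested clustered protocadherins, which share exons and are uncertain singly, had a median of -0.29. Of these PCDHGA10 was at -1.19 and PCDHGA5 at -0.91, both below DMSO in each F5446 library. Long intergenic LINC transcripts (287 tested) had a median of -0.03. LINC02195 was at 5.93, 2.07 and 1.98 CPM against 1.96 and 0.145 CPM, a fitted log2 fold change of 2.09. Its value in DMSO replicate 4 lies at the 3-count floor, and DMSO replicate 1 was close to F5446 replicates 3 and 4. The size of this fold is therefore uncertain.

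Death receptor and cytotoxic genes were not called. FAS, the death receptor, was at 118, 118 and 133 CPM with F5446 and 90.6 and 129 CPM with DMSO. The low value was that of DMSO replicate 1, and the log2 fold change was 0.12 (95% interval -0.25 to 0.49), with 0.38 in numbers 1 and 2 and -0.05 in 3 and 4. FASLG, its ligand, was at 10.4, 11.3 and 5.94 CPM against 8.53 and 5.56 CPM (0.41, 95% interval -0.23 to 1.05). In the FAS pathway 14 of 22 genes were above 0 (median 0.07). BID, which links death receptors to mitochondria, was its only member with an unadjusted p under 0.05, at 68.8, 52.7 and 40.7 against 53.3 and 33.9 CPM. Of the cytotoxic effectors, GZMA was at 19.4, 11.9 and 12.4 CPM against 11.4 and 19.4 CPM, high in a single library of each group. PRF1, the pore-forming perforin, was at 46.2, 58.8 and 62.0 against 50.1 and 63.3 CPM, and IFNG at 2.09, 1.14 and 1.39 against 4.69 and 1.30 CPM. GZMB had no count in F5446 libraries and 0.0966 CPM in DMSO replicate 4 alone, under the floor of 3 counts. The 13 tested cytotoxic genes had a median of 0.03.

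The death receptor, target and immune genes are drawn together with their intervals and within-set values.

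**Figure D4:**
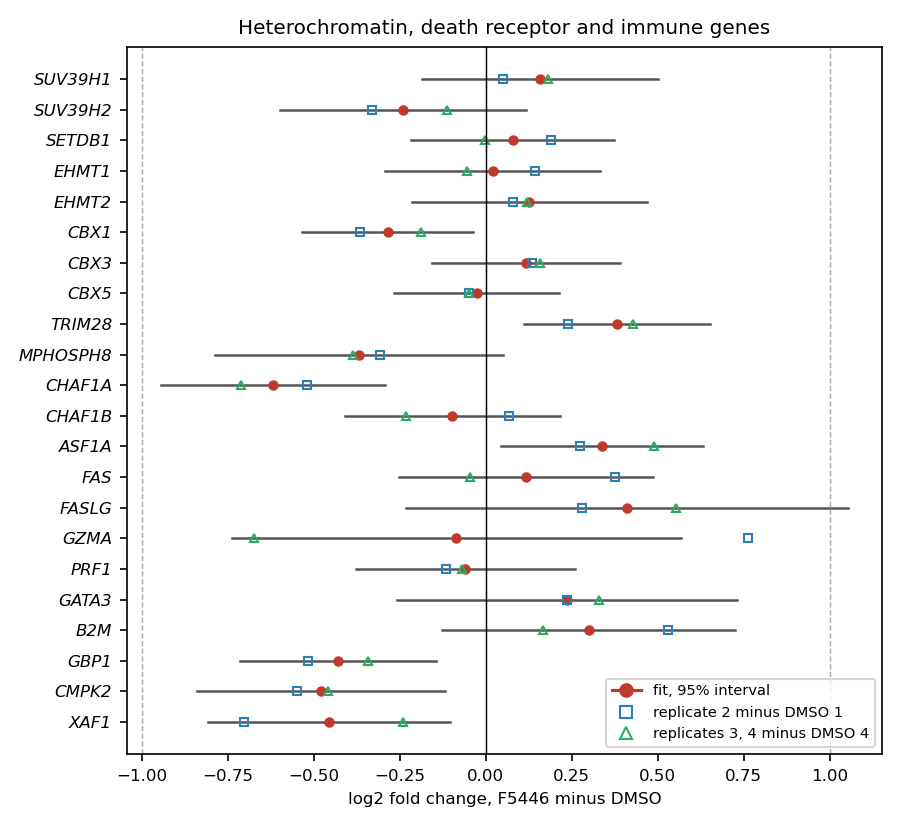
Fitted log2 fold change of F5446 against DMSO with its 95% interval (red points and bars) for 22 genes, with the difference in numbers 1 and 2 (squares) and in 3 and 4 (triangles); dashed lines mark a 2-fold change. SUV39H1 (0.16) and most of its partners straddle 0, CHAF1A (-0.62), GBP1, CMPK2 and XAF1 lie below 0, and GZMA is at 0.76 in 1 set and -0.67 in the other.

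Interferon-stimulated genes did not shift as a group, and the few with a small unadjusted p were all lower. Of 47 tested genes 24 were above 0 (median 0.03). At an unadjusted p under 0.05, 0 were higher and 4 lower, and 0 were called. Over all tested genes, 2.48% were higher and 1.52% lower at that p. GBP1, an interferon-induced guanylate-binding protein, was at 159, 111 and 118 CPM with F5446 and 228 and 146 CPM with DMSO (log2 fold change -0.43, 95% interval -0.72 to -0.15). The groups overlapped across sets, and within them GBP1 was lower by 0.52 and by 0.34. CMPK2, a mitochondrial nucleotide kinase, was at 53.5, 20.7 and 23.3 CPM against 78.3 and 30.1 CPM (-0.48). XAF1, an apoptosis gene, was at 47.0, 31.3 and 32.1 CPM against 76.6 and 37.5 CPM (-0.46). In all 3 genes the libraries numbered 1 or 2 were the highest of their group, and the F5446 level was lower in both sets.

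The promoter of GBP1 is shown because it holds the response element bound by interferon-activated factors, GAAANNGAAA on either strand. The sequence is the 250 bases before the start on the minus strand, chr1:89065209-89065458 in GRCh38.p14 (RefSeq), with the match in capitals; the counts were made on hg19 and use no coordinate.
GBP1: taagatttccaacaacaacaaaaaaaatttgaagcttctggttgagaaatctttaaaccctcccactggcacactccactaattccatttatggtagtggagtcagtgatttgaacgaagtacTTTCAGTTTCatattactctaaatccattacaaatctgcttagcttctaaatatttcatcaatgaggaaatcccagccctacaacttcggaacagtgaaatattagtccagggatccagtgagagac
This motif was in 18 of 35 interferon-stimulated promoters with an entry (51.4%) and in 3.07% of 27305 RefSeq promoters of this length, 1 per gene. A match is a description of the letters and no evidence that a factor bound.

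Antigen presentation and T cell receptor genes differed in single members. PSMB10, an immunoproteasome subunit, was at 19.5, 20.9 and 19.7 CPM with F5446 and 15.0 and 9.52 CPM with DMSO, without overlap (log2 fold change 0.79, 95% interval 0.28 to 1.31). PSMB8, another subunit, was at 235, 165 and 157 against 189 and 108 CPM (0.40). B2M, beta-2 microglobulin of class I, was at 1980, 1412 and 1365 against 1371 and 1238 CPM (0.30, 95% interval -0.13 to 0.73), and the 19 class I genes had a median of 0.03. For class II, HLA-DRB1 had 0.50 (95% interval 0.16 to 0.84) and HLA-DRA 0.29, and 10 of 15 genes were above 0 (median 0.11); the median was -0.04 without DMSO replicate 4 and 0.27 without DMSO replicate 1. HLA-DRB1 has near-identical relatives, so its counts are uncertain.

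In the T cell receptor list, CD3E, a signalling chain, was at 212, 263 and 237 CPM against 176 and 196 CPM (0.30), opposite in direction to CD247. PTPN6, the phosphatase SHP-1, was at 11.3, 20.2 and 18.0 against 6.95 and 12.996 CPM (0.58), and FYN, a Src family kinase, at 79.4, 76.2 and 73.3 against 93.9 and 89.2 CPM (-0.26). Of 31 genes 20 were above 0 (median 0.09). GATA3, the T helper 2 transcription factor, was at 688, 971 and 803 against 584 and 702 CPM, overlapping (0.24, 95% interval -0.26 to 0.73). ID3 and BATF, regulators of T cell differentiation, had 0.45 and -0.51 on the log2 scale, and the 26 lineage factors a median of 0.00. Of 27 Sézary cell markers 12 were above 0 (median -0.03).

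Mitosis and spindle genes were mostly a little higher with F5446 than with DMSO. Of 42 genes 36 were above 0 with a median of 0.12, against 52.4% and 0.02 for all genes, and 9 lay above both DMSO libraries in every F5446 library (9.44% of all genes did) with 0 below. The median was 0.10 in numbers 1 and 2 and 0.14 in 3 and 4, and 0.11 to 0.14 with single libraries left out. By library, the list's median log2 difference from the DMSO mean was 0.02, 0.26 and 0.23 with F5446. It was -0.12 and 0.12 with DMSO, so the groups overlapped. The members move together with the library, and 0 of them were called. CCNB1, the mitotic cyclin B1, was at 202, 199.8 and 179.9 CPM against 175 and 131 CPM (log2 fold change 0.35, 95% interval 0.06 to 0.64). BIRC5, survivin, was at 125, 134 and 129 CPM against 111 and 99.7 CPM (0.29), and CDCA8, its partner in the chromosomal passenger complex, at 69.2, 93.0 and 90.3 CPM against 65.2 and 66.9 CPM (0.28). These 3, with no overlap between groups, were the members with an unadjusted p under 0.05, where 2.48% of all tested genes were higher. CCNA2, cyclin A2, was at 304, 391.5 and 357 CPM against 241 and 322 CPM, overlapping (0.27, 95% interval -0.02 to 0.56).

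Promoters of mitotic genes are known for CCAAT boxes and for the cell cycle genes homology region, here searched as TTTGAA, both on either strand. The 3 members of smallest p with a RefSeq entry are shown as the 250 bases before the start, in GRCh38.p14, with matches in capitals: CCNB1 at chr5:69166900-69167149 (plus strand), CDCA8 at chr1:37692266-37692515 (plus strand) and CCNA2 at chr4:121823884-121824133 (minus strand).
CCNB1: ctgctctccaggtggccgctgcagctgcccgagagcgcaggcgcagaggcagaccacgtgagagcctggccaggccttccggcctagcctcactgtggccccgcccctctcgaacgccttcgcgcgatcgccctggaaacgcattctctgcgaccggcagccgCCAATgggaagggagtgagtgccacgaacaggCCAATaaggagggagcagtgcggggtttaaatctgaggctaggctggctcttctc
CDCA8: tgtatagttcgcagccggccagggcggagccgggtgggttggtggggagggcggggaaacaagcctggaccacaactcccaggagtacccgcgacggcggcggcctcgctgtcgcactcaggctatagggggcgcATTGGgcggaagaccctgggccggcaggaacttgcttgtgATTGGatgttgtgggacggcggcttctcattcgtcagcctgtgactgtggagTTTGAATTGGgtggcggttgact
CCNA2: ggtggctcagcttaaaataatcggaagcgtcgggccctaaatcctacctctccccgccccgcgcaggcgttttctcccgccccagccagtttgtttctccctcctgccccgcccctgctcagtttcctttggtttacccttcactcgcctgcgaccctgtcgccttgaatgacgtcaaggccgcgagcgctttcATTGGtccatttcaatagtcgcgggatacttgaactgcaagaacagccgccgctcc
CCNB1 had 2 CCAAT matches, CCNA2 1, and CDCA8 3 with 1 TTTGAA that overlaps the last of them. Of 36 mitosis promoters with an entry, 28 (77.8%) held CCAAT and 21 (58.3%) TTTGAA, where 33% and 13.6% of 27305 RefSeq promoters did. These shares describe the list and were not computed from expression.

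DNA replication genes were less even. Of 43 genes 28 were above 0 (median 0.05; 0.01 in numbers 1 and 2 and 0.13 in 3 and 4). PRIM2, a primase subunit, was at 33.5, 28.1 and 25.5 CPM against 29.2 and 15.2 CPM (0.48). RFC2, of the clamp loader, and RRM1, of ribonucleotide reductase, had 0.32 and 0.26. E2F1, the factor that drives S phase genes, was at 31.5, 31.9 and 38.0 CPM against 24.6 and 22.2 CPM without overlap (log2 fold change 0.49, 95% interval 0.12 to 0.86). Of 52 replication-dependent histone genes, which have near-identical copies and are uncertain singly, 28 were above 0 (median 0.02, with 0.22 in 1 set and -0.07 in the other). HIST1H2AB was at 82.0, 81.5 and 78.2 CPM against 61.7 and 46.4 CPM (0.65), and the linker histones HIST1H1E and HIST1H1C were at 0.40 and 0.34.

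The medians of ribosomal and nuclear-encoded mitochondrial genes depended on single libraries. The 84 cytosolic ribosomal protein genes had a median of 0.10 with 61 above 0. This turned to -0.11 without F5446 replicate 2, to -0.04 without DMSO replicate 4 and to -0.05 with replicate numbers as a block. RPS14 was at 671, 502 and 520 CPM against 406 and 354 CPM (log2 fold change 0.59, 95% interval 0.22 to 0.95), and RPL39 and RPLP0 had 0.46 and 0.30. Oxidative phosphorylation subunits encoded in the nucleus (60 of 80 positive, median 0.09) likewise turned to -0.13 without F5446 replicate 2, to -0.10 without DMSO replicate 4 and to -0.04 with the block. Of these, ATP5F1B, the catalytic beta subunit of ATP synthase, was at 573, 565 and 535 CPM against 445 and 423.5 CPM (0.35). Mitochondrial ribosomal proteins (54 of 76 above 0, median 0.09) turned to -0.04 and -0.02 without the same 2 libraries.

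The 13 mitochondrially encoded genes were all below 0, with a median of -0.41 (-0.46 in numbers 1 and 2 and -0.26 in 3 and 4). MT-CYB, cytochrome b, was at 3328, 1588 and 2378 CPM against 5437 and 2426 CPM, overlapping (log2 fold change -0.51, 95% interval -1.53 to 0.51). The share of all counts on mitochondrially encoded genes was 8.75, 5.22 and 6.86% in F5446 replicates 2, 3 and 4 and 11.7 and 6.97% in DMSO replicates 1 and 4. The list's median was -0.13 without DMSO replicate 1, -0.28 without F5446 replicate 3 and -0.72 without DMSO replicate 4, and 0 of 13 had an unadjusted p under 0.05. The part of this share in other results was not tested; with the scaling computed without these genes, 0 genes were called as before.

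Metabolic and stress lists held few members that stood out. Of 30 ATF4 targets 21 were above 0 (median 0.11); beside ASNS, the folate enzyme MTHFD2 was at 281, 303 and 250 CPM against 224 and 235 CPM (0.28), while WARS, a transfer RNA synthetase that interferon also induces, was at 195, 149.8 and 154 against 295 and 158 CPM (-0.33). That median was -0.0042 without F5446 replicate 3 and 0.22 without F5446 replicate 2. Of 30 N-glycan precursor genes 23 were above 0 (median 0.08), with ALG9 and DOLK, the dolichol kinase (-0.78), lower and MAGT1 (0.37) higher at an unadjusted p under 0.05. PGD, of the pentose phosphate pathway, was at 235, 263 and 253 CPM against 322 and 316 CPM, without overlap (log2 fold change -0.36, 95% interval -0.65 to -0.08). PKM, pyruvate kinase, was at 1531, 1839 and 1841 against 2049 and 2008 CPM (-0.26), and 11 of 31 glycolysis and hypoxia genes were above 0 (median -0.12). Ribosome biogenesis and MYC targets had 11 of 34 above 0 (median -0.07), with NOP2, a ribosomal RNA methyltransferase, at -1.11.

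**Figure D5:**
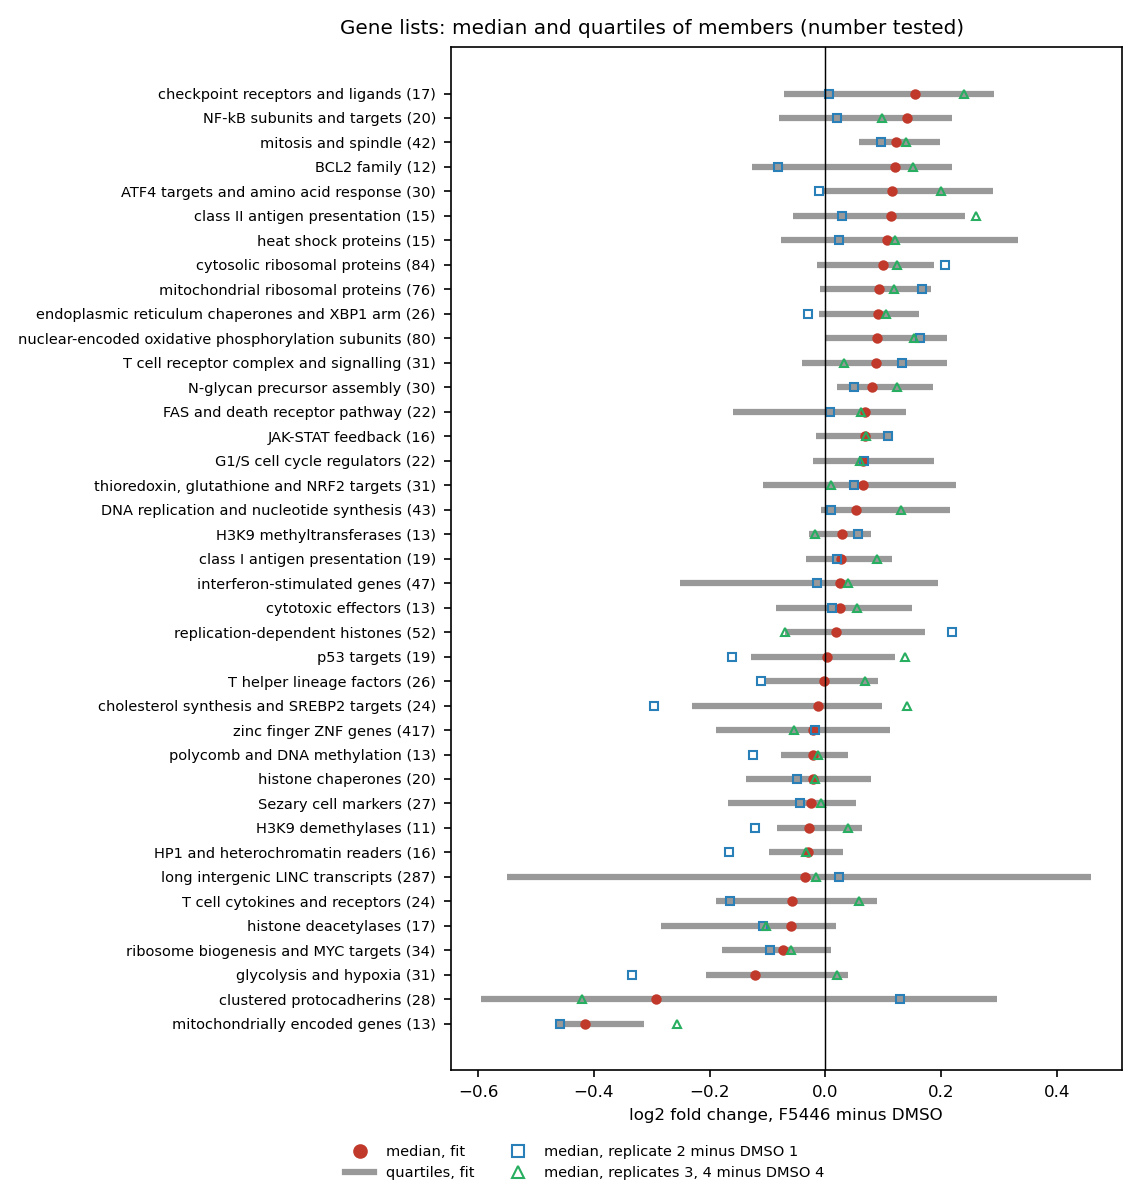
Median log2 fold change of F5446 against DMSO (red points) and quartiles (grey bars) for the gene lists with at least 10 tested members, with the median difference in numbers 1 and 2 (squares) and in 3 and 4 (triangles). Most medians lie within 0.16 of 0. Mitosis genes (0.12) sit right of 0 in both sets, as do several other lists. Among these are cytosolic ribosomal (0.21 and 0.12), mitochondrial ribosomal (0.17 and 0.12) and nuclear-encoded oxidative phosphorylation genes (0.16 and 0.15). The mitochondrially encoded genes (-0.41) and the clustered protocadherins (-0.29) lie farthest left, the latter with opposite signs in the sets.

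Chaetocin, a fungal metabolite that inhibits the same enzyme class, was given at the same dose and time, so the levels with the 2 compounds were tested against each other as 1 pair. By edgeR, 5 of 17252 genes (0.029%) were called, all 5 higher with F5446, in the fit of all 13 libraries; the structure of F5446 is not given in the sources used here. STX3, a syntaxin of membrane fusion, was at 43.0, 49.1 and 51.2 CPM with F5446 and 18.7 to 34.4 CPM with chaetocin (log2 difference 0.84, 95% interval 0.57 to 1.11, adjusted p by edgeR = 0.00626). SLFN5, an interferon-inducible Schlafen gene, was at 280, 265 and 309 CPM against 136 to 197 CPM (0.69, 95% interval 0.45 to 0.93, adjusted p by edgeR = 0.00794). ITGB7, an integrin chain of lymphocyte homing, was at 52.2, 51.9 and 59.2 against 24.8 to 35.7 CPM (0.72, adjusted p by edgeR = 0.0155). RNF144A, a ubiquitin ligase, was at 45.2, 40.4 and 47.1 against 18.4 to 32.3 CPM (0.81, adjusted p by edgeR = 0.0201). In these 4 genes every F5446 library lay above every chaetocin library.

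With F5446, STX3, ITGB7 and RNF144A overlapped their DMSO levels. SLFN5 was lower in every F5446 library than in both DMSO libraries (320 and 329 CPM). The 5th called gene is not reported here, so these 4 do not stand for all 5. These 4 genes, picked because they lay above chaetocin, were compared with DMSO. Their log2 fold changes against DMSO were 0.04 for STX3 (95% interval -0.28 to 0.37), -0.18 for SLFN5 (-0.46 to 0.10), 0.02 for ITGB7 (-0.30 to 0.33) and 0.01 for RNF144A (-0.35 to 0.38). Against the same DMSO libraries, chaetocin was at -0.80, -0.87, -0.71 and -0.80. SUV39H1 itself differed between the 2 compounds by 0.13 (95% interval -0.16 to 0.42). The count of 5 rested on the fit: it was 11 with replicate numbers as a block, 0 in a fit of the 2 groups alone or without the term for numbers, 16 by DESeq2 and 4 by limma-voom. It was 1 without F5446 replicate 2, 2 without F5446 replicate 4, 3 without chaetocin replicate 1 and 9 without chaetocin replicate 2. Chaetocin replicate 3 had the largest share of mitochondrially encoded counts (15.9%) and the fewest genes detected (16085) of the 13 libraries. It held the lowest SLFN5 and RNF144A levels, while STX3 and ITGB7 were lowest in chaetocin replicate 1. The count without chaetocin replicate 3 is not given here.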

How the data were processed

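RNA was measured in 13 libraries of HuT78 cells; DMSO serves as the control of 3 comparisons, of which F5446 against DMSO is described. Per the labels' protocols, total RNA was extracted with a column kit and DNase and made into libraries with a kit meant for degraded human RNA. Per the submitters' processing notes, bcl2fastq 2.20.0.422, cutadapt 1.8.1 and HTSeq 0.6.1 were used, with hg19. The aligner, annotation and strand setting were not given in the sources used here, and reads of a gene and an overlapping or antisense partner may be mixed. The deposited values are raw counts per gene, whole numbers, and all sample columns were used. The depth of the 5 libraries was 19951198 to 29002774 counts, and intervals combine counting error and spread between libraries. No pair of replicates was a repeat of the same library (at least 15.2 times the sampling noise, chi-square per degree of freedom, 16 pairs).

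Genes were kept by edgeR's rule for enough counts in a group. All 13 libraries were fitted together with edgeR 4.0.16 (R 4.3.3; TMM scaling, robust quasi-likelihood fit, two-sided tests) with group and the set of replicate numbers (1 or 2, 3 or 4) as terms, and p-values were adjusted by Benjamini-Hochberg over all tested genes with a threshold of 0.05. CPM are counts scaled to the TMM-adjusted library size, and log2 values used a prior count of 2. Replicate numbers come from the titles. The deviations of same-numbered libraries from their group means correlated at 0.165 to 0.673 in 15 of 15 pairs. A fit with the number as a block was therefore run as well. Only 7 of 13 libraries correlated best with one of their own number in another group. F5446 replicate 2 and DMSO replicate 1, of the same set, correlated at 0.627, so pairing by number is not established. The members, gene lists (48) and tests were chosen with earlier results of these data known. Named genes were the 12 higher and 12 lower genes with the smallest p, at least 5 CPM and no overlap of libraries; a set of target, death receptor and cytotoxic genes; and up to 4 members of smallest p of each list described, at a mean of at least 1 CPM. Some genes that this rule gives are not reported here. Lists are described by counts and medians, with no test. Alternatives were DESeq2 1.42.0, limma-voom (limma 3.58.1), other scalings and filters, a fit without robust estimation, a log2 fold of at least 0.5, other designs and single libraries left out; the pipeline was tested on simulated data. Promoter sequences are RefSeq's for GRCh38.p14, matched by symbol for 10857 of the 17252 tested genes. Plots used matplotlib 3.10.9 (Python 3.11.15).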

Additional observations from a re-analysis of the deposited data

Results flagged for a closer look

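Leaving out the marker lists of cell types, in 4 gene lists the median log2 difference of F5446 from DMSO had opposite signs in replicate numbers 1 and 2 and in 3 and 4 in every F5446 library, with a gap of more than 0.3, a size chosen after the values were seen; the gap itself was not tested and rests on 1 DMSO library per set. Cholesterol synthesis and SREBP2 target genes (24 tested) were at -0.30 and 0.14, a gap of 0.437. Glycolysis and hypoxia genes (31 tested) were at -0.33 and 0.02, a gap of 0.354. The 3 tested metallothioneins were at -0.20 and 0.26, a gap of 0.457, and the 28 clustered protocadherins at 0.13 and -0.42, a gap of -0.55. Among the cell type marker lists, the same held for fibroblast markers (5 tested; 0.18 and -0.16), epithelial markers (5 tested; -0.05 and 0.30) and the single tested natural killer marker (-0.27 and 0.16).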

How the results depend on the processing

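The count of 0 genes changed by F5446 against DMSO was also 0 with limma-voom, RLE or upper quartile scaling, a mean of at least 5 CPM, the non-robust fit, the minimum log2 fold of 0.5, group as the only term, the replicate block (563 genes at an unadjusted p under 0.05), the scaling without mitochondrially encoded genes and without chaetocin replicate 3. It was 2 with DESeq2, 5 with no filter on low counts, 27 in the fit of the 5 libraries alone and 0 to 3 with single F5446 or DMSO libraries left out (3 without DMSO replicate 4, where the lone DMSO library is assumed to vary like the other groups). The count of 5 genes different between F5446 and chaetocin was 16 with DESeq2, 41 with no filter, 3 with a mean of at least 5 CPM, 0 with the minimum fold, 0 in the fit of the 2 groups alone, 0 with group only, 11 with the replicate block and 1 to 9 with single libraries left out; leaving out chaetocin replicates 1, 2 and 4 was added after the data were seen. The replicate block changed no other call. Signs turned in genes near 0. EHMT1 was at -0.012 with upper quartile scaling, -0.019 with group only, -0.0079 with the block and -0.054 within numbers 3 and 4. With the block CBX5 was at 0.031, FAS at -0.138 and GATA3 at -0.0068. Within numbers 3 and 4 SETDB1 was at -0.0018 and FAS at -0.047; within 1 and 2 GZMA was at 0.762 and CHAF1B at 0.068. With single libraries left out, the log2 fold change ran from -0.067 to 0.088 for EHMT1, -0.114 to 0.064 for CBX5, -0.060 to 0.217 for FAS, -0.151 to 0.039 for PRF1, -0.543 to 0.522 for GZMA and -0.208 to 0.020 for CHAF1B. Depth limits what can be said of genes under 5 CPM.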
